A study of Saccharomyces cerevisiae with 12 samples.

Results

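Cultures of Saccharomyces cerevisiae given tomatidine were compared directly with cultures given fenpropimorph. The compared arrays were the 3 whose titles name tomatidine at 0.625 ppm and the 3 whose titles name fenpropimorph at 0.313 ppm, 6 of the 12 arrays of the series. All 5656 genes that a probe set names alone were described, out of 9275 tested probe sets. Every culture was strain S288C, a haploid of mating type alpha, started at an OD600 of 0.1, kept for 1 h at 30 °C without and then for 5 h with a compound in the solvent dimethylformamide. The solvent alone was the control (3 arrays), tomatine at 13.9 ppm was the remaining group (3 arrays), and 1 culture of each group was grown on each of 3 days. An array is named by its compound and day, so that tomatidine 2 is the tomatidine culture of day 2. Each compound was used at 1 dose, the doses are by mass and differ, and the labels give no culture density at harvest. Differences therefore compare these doses, not the compounds at matched strength. Another label field names 15 uM tomatidine for all samples, controls included, and was not used.

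Ergosterol is the main sterol of yeast membranes, made from acetyl-CoA through mevalonate, farnesyl diphosphate, squalene and lanosterol. Fenpropimorph, a fungicide of the morpholine class, is known to block ERG24, the sterol C-14 reductase, and ERG2, the sterol C-8 isomerase. Tomatidine is a steroidal alkaloid, the tomato glycoalkaloid tomatine without its sugars, and has been linked in yeast to the sterol C-24 methyltransferase ERG6. When sterol falls, the transcription factor UPC2 is known to turn on the ergosterol genes, the sterol importers and cell wall mannoproteins of anaerobic growth.

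Most of the large differences between the compounds were toward a higher signal with fenpropimorph. Of the 5656 genes, 2299 (40.6%) differed between the compounds at an adjusted p under 0.05 in limma, of which 1282 (22.7%) were higher with tomatidine and 1017 (18%) lower. At 2-fold or more the balance was reversed, with 22 genes (0.389%) higher with tomatidine and 192 (3.39%) higher with fenpropimorph. The median log2 difference over all genes, tomatidine minus fenpropimorph, was 0.05. For 6.51% of genes the compounds differed and all arrays of one lay above, and all of the other below, every control array. Against the shared control arrays, 318 genes (5.62%) were called with tomatidine (179 higher, 3.16%, and 139 lower, 2.46%) and 2219 (39.2%) with fenpropimorph (1009 higher, 17.8%, and 1210 lower, 21.4%). These shares are the background for every gene group below, and a group whose share lies near them is not set apart. Arrays of the same compound correlated at 0.996 to 0.997 over all probe sets, and tomatidine with fenpropimorph arrays at 0.983 to 0.987. The array's own 3′ to 5′ log2 ratio for SPT15 was 1.49 to 2.02 with tomatidine and 2.26 to 2.41 with fenpropimorph, for ACT1 it was 0.38 to 0.61 and 0.29 to 0.47, and their part in the results was not tested. Values after ± are standard errors of log2 differences with n = 3 arrays in each group, and a positive difference is higher with tomatidine. Signals come from bulk RNA, so fewer cells holding a transcript and less of it per cell cannot be told apart. The labels place the replicates on 3 independent days, so the p-values measure the spread between such cultures. That spread was pooled over all 4 groups, tomatine and control included, and not taken from the compared arrays alone.

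**Figure D1:**
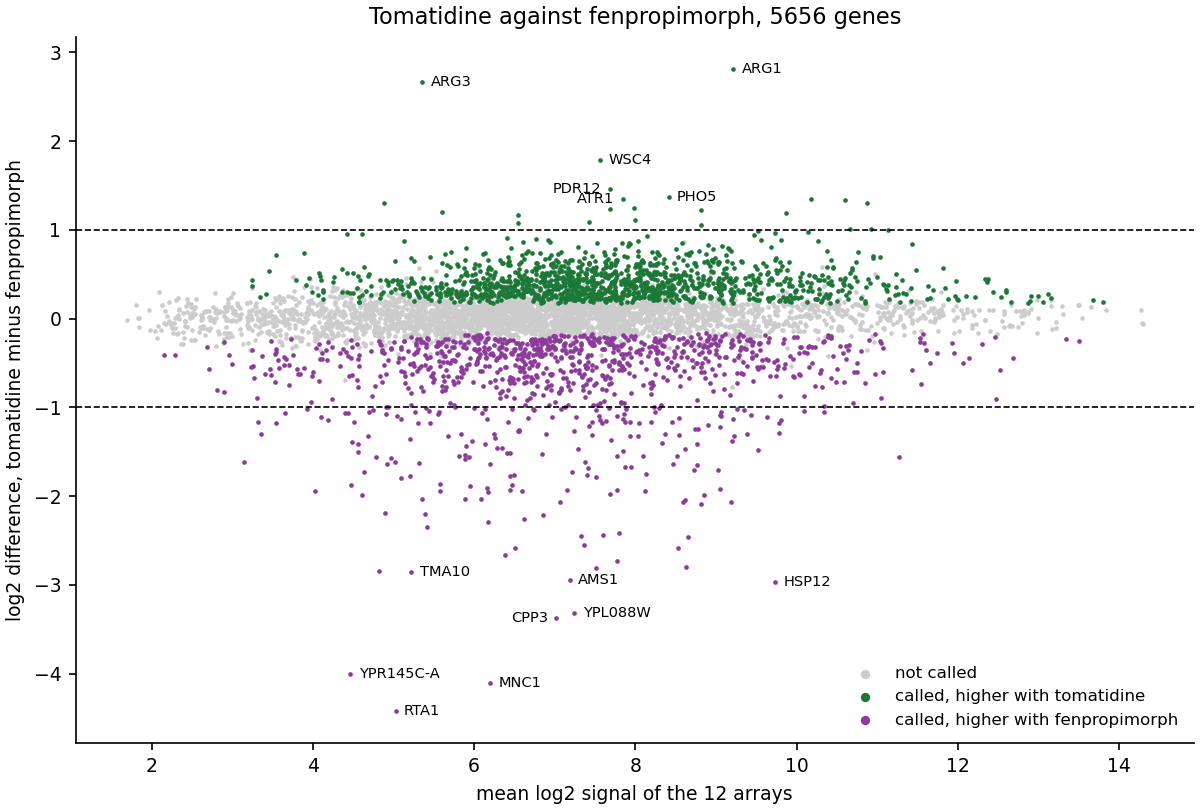
Log2 difference of tomatidine minus fenpropimorph (vertical axis) against the mean log2 signal of the 12 arrays (horizontal axis) for 5656 genes, with called genes in colour and the 6 highest and 8 lowest called genes named. The points reach from -4.42 for RTA1 to 2.81 for ARG1, and differences past the dashed 2-fold lines lie mostly on the fenpropimorph side.

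Enzymes from squalene to ergosterol were higher with fenpropimorph than with tomatidine at most steps, but not at the last reductase. Of 15 measured genes of late ergosterol synthesis, 10 were lower with tomatidine and 0 were higher, with a median log2 difference of -0.39. Both compounds stood above control, with 14 of these genes called higher with tomatidine (median 0.75) and 15 with fenpropimorph (median 1.17). At the entry, ERG1, squalene epoxidase, read 796, 859.9 and 801 with tomatidine and 1023, 1089 and 1232 with fenpropimorph (log2 difference -0.44 ± 0.123, adjusted p = 0.017), and ERG7, lanosterol synthase, differed by -0.29 ± 0.0699 (adjusted p = 0.00708). ERG11, the lanosterol C-14 demethylase, and NCP1, the reductase that feeds it electrons, differed by -0.35 ± 0.0671 and -0.24 ± 0.0621 (adjusted p = 0.00178 and 0.0112). Without tomatidine 1 or fenpropimorph 3, ERG1 missed the threshold (adjusted p = 0.0539 and 0.0712).

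The widest gaps were at 3 genes for removal of the C-4 methyl groups. ERG26, the C-3 sterol dehydrogenase of that complex, read 508, 518 and 462 with tomatidine, 866, 963 and 984 with fenpropimorph and 303, 299.96 and 263 in control. Neither group overlapped with the other or with control, and the difference between the compounds was -0.92 ± 0.0841 (adjusted p = 8.21e-06). ERG27, the 3-keto reductase, and ERG28, the scaffold, followed at -0.62 ± 0.0813 and -0.60 ± 0.096 (adjusted p = 0.00013 and 0.000563), and ERG25, the methyl oxidase, at -0.39 ± 0.0646 (adjusted p = 0.000722).

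The genes of both enzymes that fenpropimorph blocks read higher with fenpropimorph on every array, and ERG2 passed the test. ERG2 read 5476, 5209 and 4848 with tomatidine and 7230.1, 7214 and 7490.4 with fenpropimorph, against 3015, 2985 and 2794 in control, a difference of -0.50 ± 0.0707 (adjusted p = 0.000229). ERG24 read 711, 676 and 608 and 851, 860.1 and 924, against 343, 359 and 333 in control. Its arrays did not overlap between the compounds, as was so for 56.5% of all genes, and its difference of -0.40 ± 0.148 missed the threshold (95% interval -0.73 to -0.08, adjusted p = 0.0592) but passed it in a fit of the 6 compared arrays alone (adjusted p = 0.00842). The gene of the methyltransferase linked to tomatidine, ERG6, read 2509, 2353 and 2252 with tomatidine and 2124, 3196 and 3369 with fenpropimorph. Fenpropimorph 1 lay below all tomatidine arrays and the others above them (difference -0.26 ± 0.137, 95% interval -0.56 to 0.04, adjusted p = 0.184). Without fenpropimorph 1 the ERG6 difference was -0.47 and passed the test (adjusted p = 0.000564).

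Of the last enzymes, ERG5 alone passed the test. ERG5, the C-22 desaturase, was lower with tomatidine (-0.51 ± 0.0729, adjusted p = 0.000264), whereas ERG3, the C-5 desaturase, read 6072, 6059 and 5558 with tomatidine and 6424, 6216 and 6791 with fenpropimorph, from 2684, 2721 and 2551 in control. The ERG3 difference was -0.14 ± 0.0626 (95% interval -0.27 to 0.00, adjusted p = 0.131). ERG4, the final C-24(28) reductase, read 2294, 2232 and 2016 with tomatidine and 2008, 1975 and 1919 with fenpropimorph. All 3 tomatidine arrays were above all 3 fenpropimorph arrays, the only such case among these 15 genes, and the difference of 0.15 ± 0.0618 missed the threshold (95% interval 0.01 to 0.28, adjusted p = 0.0984). Without tomatidine 3 it was 0.20 and passed (adjusted p = 0.0319). ERG29, linked to the C-4 demethylation step, had a difference of -0.37 (95% interval -0.82 to 0.09, adjusted p = 0.224) and passed in the fit of the 6 compared arrays alone (adjusted p = 0.034).

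**Figure D2:**
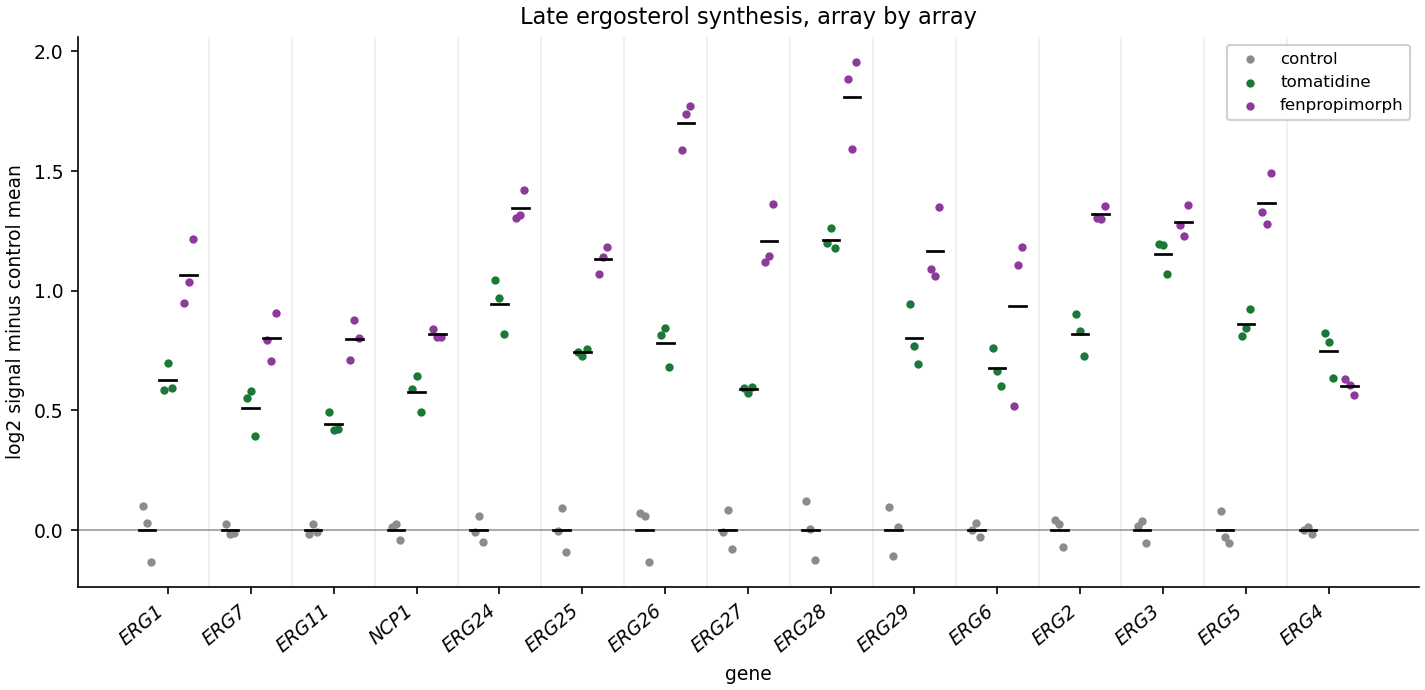
Log2 signal minus the mean of the 3 control arrays (vertical axis) for 15 genes of late ergosterol synthesis in pathway order (horizontal axis), 1 point per array and a bar at each group mean; control arrays are grey. Fenpropimorph lies above tomatidine for every gene but ERG4, with the widest gap at ERG26 (-0.92).

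Earlier enzymes, from acetyl-CoA to squalene, were also higher with fenpropimorph where they differed. Of 11 measured genes, 6 were lower with tomatidine and 0 higher (median log2 difference -0.31). ERG10, acetoacetyl-CoA thiolase, read 1946, 2113 and 2051 with tomatidine and 2959, 3089 and 3248 with fenpropimorph, against 1887, 1924 and 1751 in control (difference -0.61 ± 0.063, adjusted p = 2.37e-05). Every fenpropimorph array lay above every tomatidine array, and the tomatidine arrays lay narrowly above control and were not called against it. ERG9, squalene synthase, differed by -0.55 ± 0.0918 (adjusted p = 0.000766) and MVD1, mevalonate diphosphate decarboxylase, by -0.46 ± 0.0609 (adjusted p = 0.000141). ERG13, ERG20 and ERG12 differed by -0.32 ± 0.0939, -0.31 ± 0.088 and -0.26 ± 0.0628 (adjusted p = 0.0235, 0.0175 and 0.00811). The hydroxymethylglutaryl-CoA reductases did not pass the test, with log2 differences of -0.18 for HMG1 (95% interval -0.34 to -0.01) and 0.01 for HMG2 (95% interval -0.13 to 0.16). IDI1, which isomerises isopentenyl diphosphate, stood at 0.19 (95% interval 0.01 to 0.37, adjusted p = 0.102). ERG13 missed the threshold without tomatidine 2, tomatidine 3, fenpropimorph 2 or fenpropimorph 3 (adjusted p = 0.0622 to 0.092), and ERG20 without tomatidine 3 or fenpropimorph 3 (adjusted p = 0.072 and 0.0574).

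Regulators of sterol and hypoxic genes were called in both directions. UPC2, the sterol-sensing activator, read 65.3, 71.3 and 68.8 with tomatidine, 181, 171 and 198 with fenpropimorph and 42.5, 42.2 and 34.6 in control. It was 2.67-fold higher with fenpropimorph than with tomatidine (log2 difference -1.42 ± 0.142, adjusted p = 1.72e-05), a wider gap than that of any late ergosterol enzyme. Its paralogue ECM22 lay the other way, at 124, 107 and 137 with tomatidine and 104, 87.6 and 93.9 with fenpropimorph (difference 0.36 ± 0.0975, adjusted p = 0.014), and the tomatidine arrays overlapped the control values of 126, 115 and 133. HAP1, the heme-responsive activator, was lower with tomatidine (-0.49 ± 0.082, adjusted p = 0.000698). The hypoxic repressor ROX1 was higher by 0.45 ± 0.116 (adjusted p = 0.0109) and its co-repressor TUP1 by 0.36 ± 0.0704 (adjusted p = 0.00224). NSG1 and NSG2, relatives of mammalian INSIG proteins, differed in opposite directions, by 0.24 ± 0.0559 and -0.55 ± 0.0607 (adjusted p = 0.00696 and 3.76e-05). In all, 5 of 15 regulators were higher with tomatidine and 3 lower (33.3% and 20%, beside 22.7% and 18% of all genes). Without tomatidine 3 or fenpropimorph 2 the 5 became 3, and ECM22 missed the threshold (adjusted p = 0.0582 and 0.0646). HAP1 was called on its brightest probe set and not on the other 2.

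Sterol import and the oxysterol-binding protein HES1 were lower with tomatidine, while the ester hydrolase YEH1 and the acetyltransferase ATF2 did not pass the test. AUS1 and PDR11, the transporters that bring in sterol, read 205, 219 and 183 and 85.1, 84.4 and 70.9 with tomatidine and 387, 374 and 313 and 131, 105 and 119.7 with fenpropimorph, from 107, 113 and 109 and 43.4, 37.6 and 42.4 in control. Their differences were -0.82 ± 0.0931 and -0.56 ± 0.144 (adjusted p = 4.29e-05 and 0.0107), and 5 of the 6 probe sets of AUS1 were called lower with tomatidine. HES1 read 95.6, 112 and 75.3 with tomatidine, 298, 364 and 422 with fenpropimorph and 7.49, 14.4 and 10.1 in control, and was 3.84-fold higher with fenpropimorph than with tomatidine (log2 difference -1.94 ± 0.215, adjusted p = 3.73e-05). Among its relatives OSH6 was also lower with tomatidine (-0.55 ± 0.0761, adjusted p = 0.00018), and the other 5 measured homologues were not called.

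The sterol acyltransferases differed unequally. ARE2 read 16.9, 19.1 and 19.4 with tomatidine, overlapping the control values of 20.6, 20.4 and 17.96, and 42.4, 37.2 and 44.3 with fenpropimorph (difference -1.16 ± 0.11, adjusted p = 1.02e-05), and ARE1 differed by -0.21 ± 0.0693 (adjusted p = 0.0389). ATF2, which acetylates alcohols and steroids, read 773, 855 and 774 with tomatidine and 722, 702 and 754 with fenpropimorph, both far above the control's 199.8, 229.5 and 212. Between the compounds ATF2 had a log2 difference of 0.14 ± 0.0752 (95% interval -0.02 to 0.30, adjusted p = 0.195). YEH1, a steryl ester hydrolase, had a difference of 0.01 (95% interval -0.28 to 0.30) and stood 2.04-fold and 2.02-fold above control with tomatidine and fenpropimorph. Of the 17 measured genes of sterol uptake, esterification and acetylation, 5 were lower with tomatidine and 3 higher. These shares were 29.4% and 17.6%, beside 18% and 22.7% of all genes. ARE1 missed the threshold without any 1 of the compared arrays except fenpropimorph 3 (adjusted p = 0.0655 to 0.149).

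Most cell wall mannoproteins of anaerobic growth were higher with fenpropimorph than with tomatidine, and most were above control with each compound. Against control 6 of 9 measured genes were called higher with tomatidine and 7 with fenpropimorph. Between the compounds, 7 were lower with tomatidine and 0 higher (median log2 difference -0.76). TIR4 read 823, 799 and 455 with tomatidine, 2807, 2835 and 2891 with fenpropimorph and 123, 153 and 138 in control (difference -2.09 ± 0.179, adjusted p = 5.1e-06). DAN4 read 1119.5, 1502 and 761 and 2863, 3333 and 4148, from 102, 105 and 103 in control (difference -1.65 ± 0.196, adjusted p = 6.25e-05). Tomatidine 3 was the lowest tomatidine array for both. DAN1 read 1811, 1797 and 1189 with tomatidine and 3659, 3535 and 3382 with fenpropimorph, from 31.6, 97.96 and 32.2 in control, where control 2 was the highest (difference -1.17 ± 0.344, adjusted p = 0.0227). TIR3 and TIR2 differed by -0.76 ± 0.112 and -0.54 ± 0.0973 (adjusted p = 0.000305 and 0.00118). The 2 genes not called were FLO11, a flocculin, with a difference of -0.06 (95% interval -0.29 to 0.18), and TIR1, at 13804, 13889.6 and 13734 with tomatidine and 14644, 15162 and 14757 with fenpropimorph (difference -0.11 ± 0.136, 95% interval -0.40 to 0.19). DAN1 missed the threshold without tomatidine 3 or any 1 fenpropimorph array (adjusted p = 0.0526 to 0.0854).

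Seripauperins, a large family of small cell wall proteins, were higher with fenpropimorph than with tomatidine in every measured case. The 10 log2 differences ran from -1.91 to -1.06. Against control, 10 of 10 were higher with fenpropimorph and 1, PAU23, with tomatidine. PAU19 read 56.8, 52.3 and 55.7 with tomatidine, 161, 199 and 271 with fenpropimorph and 43.01, 48.3 and 49.95 in control (difference -1.91 ± 0.145, adjusted p = 2.04e-06). All of these probe sets carry a suffix letter that marks possible matches to near-identical genes, so the members cannot be told apart, and 0 remained to test when such probe sets were left out. PAU23 is also counted among the mannoproteins, under its older name DAN2.

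Oxygen and heme genes were called in both directions. HEM13, coproporphyrinogen oxidase, a standard hypoxic marker, read 787, 784 and 641 with tomatidine, 1188, 1092 and 1089 with fenpropimorph and 415, 440.3 and 371 in control (difference -0.61 ± 0.123, adjusted p = 0.00258), and HEM14, the next enzyme, differed by -0.57 ± 0.073 (adjusted p = 0.000115). Of 20 hypoxic and heme genes, 5 were lower with tomatidine and 2 higher, shares of 25% and 10% beside 18% and 22.7% of all genes. The flavohemoglobin gene YHB1 was one of the higher ones (0.37 ± 0.0898, adjusted p = 0.00755), and COX5A, the aerobic cytochrome oxidase subunit, the other (0.35 ± 0.116, adjusted p = 0.0373). The 2 became 1 without tomatidine 1, fenpropimorph 2 or fenpropimorph 3. COX5A missed the threshold without any of these or tomatidine 3 (adjusted p = 0.0926 to 0.136), and the dimmest of the 4 probe sets of YHB1 was lower with tomatidine, where the other 3 were higher.

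The genes furthest apart were high with fenpropimorph. With tomatidine RTA1 and MNC1 lay near control, CPP3 below it and YPR145C-A above it. RTA1, a membrane protein of the lipid-translocating exporter family, read 14.99, 15.7 and 14.2 with tomatidine, 15.2, 16.9 and 15.01 in control and 281, 329 and 352 with fenpropimorph. It was 21.4-fold higher with fenpropimorph than with tomatidine (log2 difference -4.42 ± 0.0976, adjusted p = 1.71e-10), the largest difference of all genes on this scale. MNC1 and CPP3, small membrane proteins of the CYSTM family, read 36.2, 33.02 and 34.00 and 58.6, 71.4 and 66.9 with tomatidine and 552, 612 and 617 and 488, 866 and 729.9 with fenpropimorph. They were 17.2-fold and 10.3-fold higher with fenpropimorph (log2 differences -4.11 ± 0.206 and -3.37 ± 0.167, adjusted p = 9.29e-08 and 8.47e-08), and the tomatidine arrays lay within the control range of 56.5, 27.3 and 41.1 for MNC1 and below the control values of 74.4, 86.8 and 72.6 for CPP3. The small reading frame YPR145C-A was above control with tomatidine, at 21.7, 37.5 and 12.2 against 5.74, 7.45 and 5.77 in control, and reached 263, 340.3 and 460.3 with fenpropimorph (difference -4.01 ± 0.322, adjusted p = 3.17e-06).

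Metabolic genes were also in this top group. YPL088W, a putative aryl alcohol dehydrogenase, was 9.95-fold higher with fenpropimorph (-3.32 ± 0.147), AMS1, the vacuolar alpha-mannosidase, 7.68-fold (-2.94 ± 0.138), and NQM1, a transaldolase, 7.20-fold (-2.85 ± 0.172). DIA1, named for invasive growth, differed by -2.81 ± 0.186, YHR138C by -2.73 ± 0.0907 and BDH2, a putative butanediol dehydrogenase, by -2.66 ± 0.147. Adjusted p-values of these 6 genes were between 4.75e-09 and 6.01e-07. Their arrays did not overlap between the compounds, but the rule that picked the lowest genes required this. Dim probe sets carry folds that depend on the scale: with 16 added to each signal before the log, the fold of MNC1 was 12.1 and exceeded that of RTA1, and the folds of RTA1, YPR145C-A and NQM1 were 10.8, 9.41 and 4.19.

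**Figure D3:**
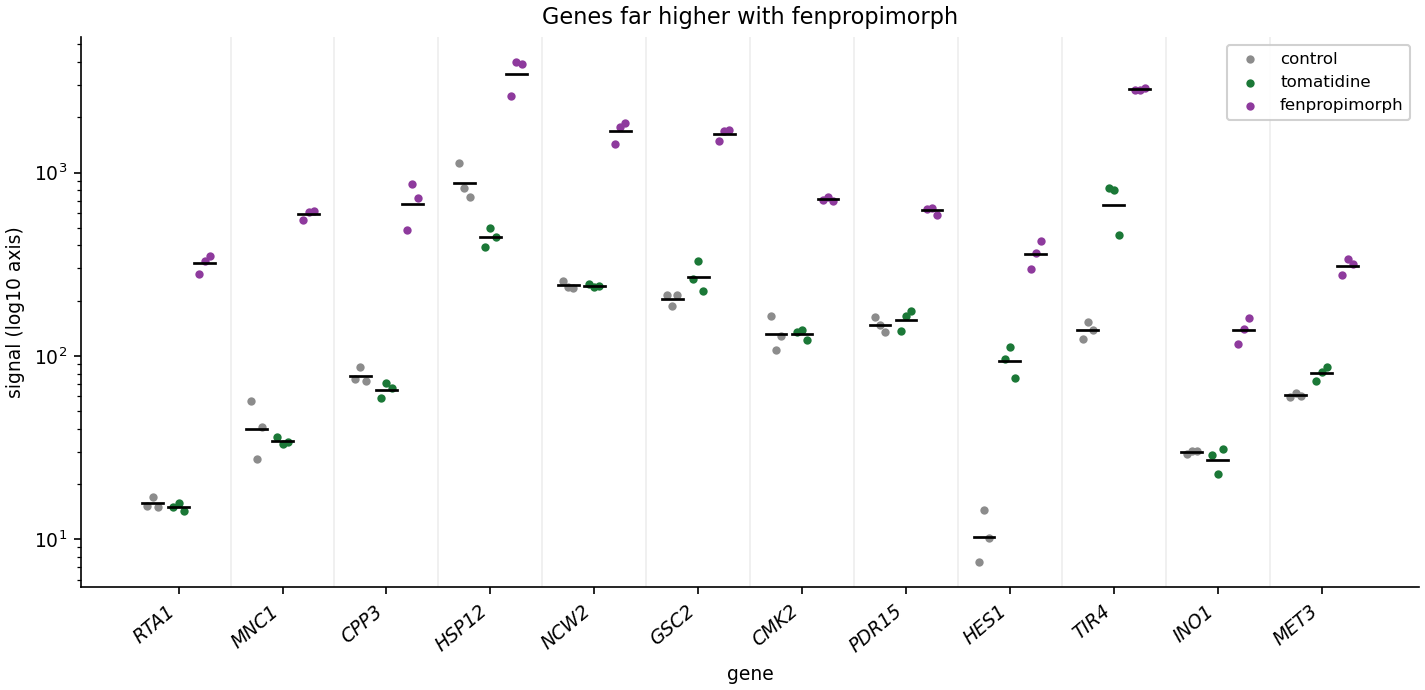
Signal on a log10 axis (vertical) of 12 genes that were far higher with fenpropimorph than with tomatidine (horizontal axis), 1 point per array for control, tomatidine and fenpropimorph, with a bar at the geometric mean. Fenpropimorph lies above both other groups for every gene shown, by 21.4-fold over tomatidine for RTA1, while tomatidine overlaps or lies below control for RTA1, MNC1, CPP3, HSP12, NCW2, CMK2, PDR15 and INO1.

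Drug resistance genes were called mostly as lower with tomatidine, with exceptions among the exporters. PDR15 and PDR10, transporters of the pleiotropic drug resistance network, read 136, 165 and 175 and 157, 167 and 139 with tomatidine, overlapping the control values of 162, 147 and 134 and 155, 152 and 149, and 631, 644 and 589 and 518, 606 and 637 with fenpropimorph (differences -1.98 ± 0.105 and -1.93 ± 0.0972, adjusted p = 1.25e-07 and 9.29e-08). PDR3, an activator of that network, was lower with tomatidine (-0.87 ± 0.0742, adjusted p = 4.9e-06), whereas PDR1, the other activator, had a difference of -0.07 (95% interval -0.23 to 0.08). ICT1, a lysophosphatidic acid acyltransferase, read 828, 934 and 838 with tomatidine and 2103, 2125 and 2116 with fenpropimorph (difference -1.29 ± 0.0654, adjusted p = 9.29e-08). SNQ2, TPO1 and PDR16 differed by -0.64 ± 0.101, -0.57 ± 0.0826 and -0.55 ± 0.0719 (adjusted p = 0.000515, 0.000276 and 0.000126).

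PDR12, the exporter of weak organic acids, went the other way, at 306, 205 and 269.6 with tomatidine, 126, 85.4 and 75.6 with fenpropimorph and 345, 261 and 255 in control (difference 1.46 ± 0.196, adjusted p = 0.00015). AQR1, an exporter of short-chain acids and amino acids, read 128, 123 and 109 and 65.1, 70.4 and 61.4, both below the control's 214, 209.7 and 168 (difference 0.87 ± 0.113, adjusted p = 0.000123). In all, 9 of 22 genes were lower with tomatidine and 2 higher. The 7 probe sets that name PDR5, the best known exporter, were all dim: the brightest read 17.9 to 27.9 on the 6 compared arrays, with a difference of 0.09 (95% interval -0.26 to 0.44), and another was called lower with tomatidine. YOR1 was not called on its brightest probe set, where fenpropimorph 1 read 676 and the other 2 fenpropimorph arrays 1408 and 1517 (-0.54 ± 0.228, adjusted p = 0.0996). Only the next brightest of its 7 probe sets was called, as lower with tomatidine. Without fenpropimorph 1 the difference on the brightest probe set was -0.91 (adjusted p = 1.31e-05). PUG1, of the RTA1 family, was 4.08-fold higher with fenpropimorph (-2.03 ± 0.137, adjusted p = 7.55e-07).

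Many cell wall and calcium signalling genes were higher with fenpropimorph than with tomatidine. Of 42 genes of cell wall integrity, 24 (57.1%) were lower with tomatidine and 5 higher. Against control, 22 were called higher with fenpropimorph and 0 with tomatidine, where 2 were lower. The 5 higher genes became 3 without tomatidine 1, tomatidine 3 or fenpropimorph 3. NCW2, a cell wall protein, read 247, 238 and 239.7 with tomatidine, 255, 238 and 235 in control and 1434, 1775 and 1859.5 with fenpropimorph (difference -2.80 ± 0.0905, adjusted p = 4.68e-09). GSC2, the inducible glucan synthase, differed by -2.58 ± 0.118 (adjusted p = 5.39e-08), and all 7 of its probe sets were called lower with tomatidine. The cell surface proteases YPS1 and YPS3 differed by -2.07 ± 0.0868 and -2.07 ± 0.0829 (adjusted p = 4.58e-08 and 3.33e-08). SLT2, the kinase at the end of the pathway, read 206, 222 and 202 with tomatidine, 219, 216 and 200.01 in control and 452, 480.1 and 487 with fenpropimorph (difference -1.17 ± 0.0651, adjusted p = 1.73e-07).

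Among surface sensors WSC4 stood out in the opposite direction, at 271, 186 and 244 with tomatidine, 95.4, 63.4 and 49.5 with fenpropimorph and 425, 320.2 and 338 in control (difference 1.79 ± 0.226, adjusted p = 9.87e-05). Every tomatidine array was below every control array and above every fenpropimorph array. Of 9 sensors 2 were higher (1 without tomatidine 3, fenpropimorph 1 or fenpropimorph 2) and 1 lower (0 without tomatidine 2, tomatidine 3 or fenpropimorph 1). The shares of sensors, 22.2% and 11.1%, were near or below those of all genes. For the calcium genes, 9 of 20 were lower with tomatidine and 0 higher. CMK2, a calmodulin-dependent kinase, read 135, 138 and 121 with tomatidine, 166, 108 and 128 in control and 710.5, 736 and 699 with fenpropimorph (difference -2.44 ± 0.13, adjusted p = 1.25e-07). The calcineurin regulators RCN2 and RCN1 differed by -1.95 ± 0.127 and -1.37 ± 0.0998, the vacuolar calcium pump PMC1 by -1.13 ± 0.0935 and the Golgi pump PMR1 by -0.54 ± 0.0614 (adjusted p = 5.32e-07, 1.46e-06, 4.17e-06 and 4.31e-05).

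Genes of the general stress response stood, as a group, lower with tomatidine. Of 41 genes, 33 (80.5%) were lower with tomatidine and 1 higher, with a median log2 difference of -0.97, and 20 differed at least 2-fold. HSP12, a membrane-stabilising stress protein, read 392, 498 and 444 with tomatidine, 1134, 822 and 736 in control and 2628, 4019.9 and 3907 with fenpropimorph (difference -2.97 ± 0.193, adjusted p = 5.42e-07). For this gene tomatidine thus lay wholly below control and fenpropimorph wholly above it. Over the list, 30 of 41 genes were called above control with fenpropimorph (median 0.81) and 2 below. With tomatidine 6 were called below control (median -0.22) and 1 above. The small heat shock protein gene HSP26 differed by -2.45 ± 0.194, TFS1, an inhibitor of carboxypeptidase Y, by -2.47 ± 0.129, and MSC1 by -2.22 ± 0.207 (adjusted p = 2.87e-06, 1.15e-07 and 9.38e-06). TSA2, a stress-induced peroxiredoxin, was above control with both compounds, at 178, 213 and 142 with tomatidine, 799, 1084 and 1243 with fenpropimorph and 66.5, 79.5 and 55.4 in control (difference -2.55 ± 0.181, adjusted p = 1.22e-06). Fenpropimorph 1 was the lowest of the 3 fenpropimorph arrays for 27 of the 41 genes, beside 1551 of all 5656, and 34 were lower without it. It was also the lowest for 10 of 10 seripauperins, 28 of 42 cell wall integrity genes and 25 of 33 methionine and sulfate genes. Fenpropimorph 1 was the highest of the 3 for 22 of 25 purine and one-carbon genes, beside 2331 of all 5656 genes. Without it 10, 24 and 14 genes of these lists were lower with tomatidine and 19 purine genes were higher. The 1 stress gene higher with tomatidine than with fenpropimorph was not called without tomatidine 3, fenpropimorph 2 or fenpropimorph 3.

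Reserve carbohydrate, osmotic and redox genes that were called in the main fit were all lower with tomatidine. Of 24 trehalose and glycogen genes 13 were lower with tomatidine, among them the trehalose synthase genes TPS1 and TPS2 (-1.11 ± 0.117 and -1.10 ± 0.119, adjusted p = 2.69e-05 and 3.14e-05). Osmotic and glycerol genes were lower in 12 of 23 cases, including GPP2, glycerol phosphatase, at 223, 321 and 275 with tomatidine, 716, 799 and 861 with fenpropimorph and 174, 164 and 168 in control (-1.55 ± 0.115, adjusted p = 1.77e-06), and GPD1, glycerol phosphate dehydrogenase (-1.05 ± 0.0984, adjusted p = 9.86e-06). RTC3 differed by -2.42 ± 0.126 (adjusted p = 1.08e-07). In the oxidative stress list 16 of 35 were lower and 0 higher, with GTT1, a glutathione transferase, at -1.48 ± 0.0881 and GND2, of the pentose phosphate path, at -1.96 ± 0.115 (adjusted p = 2.95e-07 and 2.61e-07).

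Protein breakdown genes were lower with tomatidine in most cases. The autophagy and vacuolar list had 18 of 21 lower (85.7%) and 0 higher. PRB1, vacuolar protease B, read 309, 339 and 325 with tomatidine, 381, 337 and 325 in control and 1187, 1328 and 1359 with fenpropimorph (difference -1.99 ± 0.0863, adjusted p = 5.34e-08), and ATG8, which coats autophagosomes, read 191, 182 and 199, 217, 211 and 173 and 546, 649.8 and 639 in that order (difference -1.68 ± 0.108, adjusted p = 4.87e-07). Proteasome genes were lower in 23 of 33 cases with a small median difference of -0.24, and their activator RPN4 differed by -0.65 ± 0.0902 (adjusted p = 0.000189). Against control 29 of the 33 were called higher with fenpropimorph (median 0.31) and 1 with tomatidine (median 0.06), and 0 were called lower with either. Of 19 cytosolic chaperone genes 5 were lower (26.3%, beside 18% of all genes) and 14 were not called, with a median log2 difference of -0.09. SSE2 (-1.07 ± 0.0896) and HSP82 (-0.87 ± 0.125) led them (adjusted p = 4.43e-06 and 0.000245). Of 21 genes of the unfolded protein response and of folding in the endoplasmic reticulum, 7 were lower (33.3%). The widest gap in that list was at INO1 (-2.35), which is also counted among the phospholipid genes. HAC1, the activator of that response, differed by -0.58 ± 0.0672 (adjusted p = 5.26e-05). In the last list 1 gene was higher, and 0 were with the day as a block or without any 1 compared array but fenpropimorph 3.

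**Figure D4:**
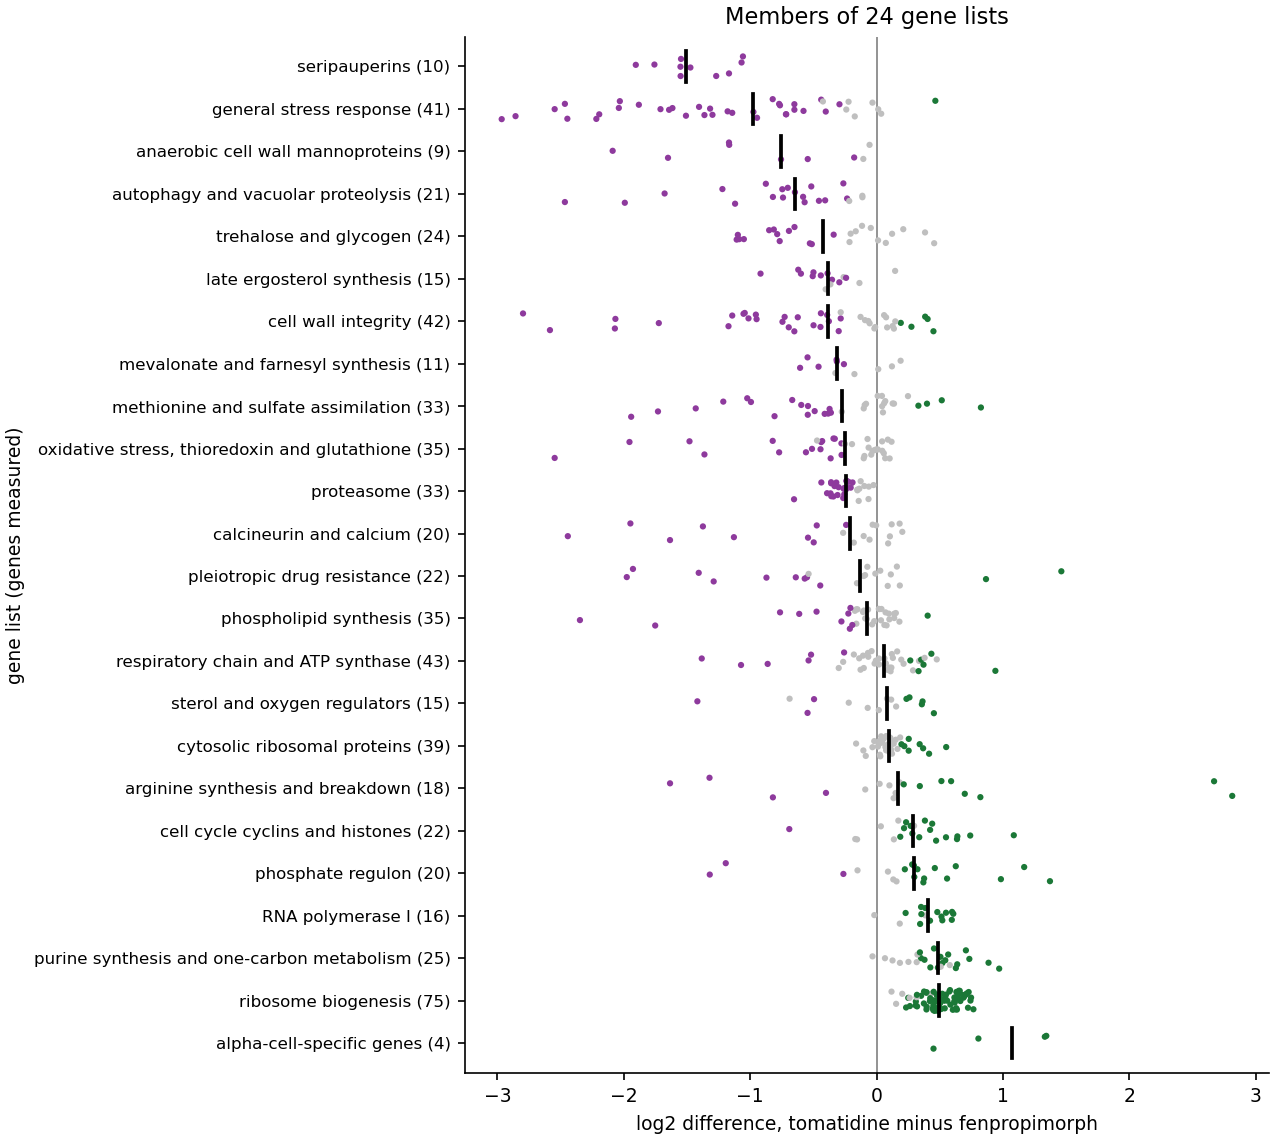
Log2 difference of tomatidine minus fenpropimorph (horizontal axis) of every measured gene in 24 gene lists (vertical axis), with called genes in colour, uncalled genes in grey and a black bar at each list's median. General stress, autophagy and seripauperin genes lie to the left, higher with fenpropimorph, and ribosome biogenesis, RNA polymerase I and alpha-cell genes to the right; the median of all genes is 0.05.

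Lipid genes outside the sterol pathway differed at a few steps. Of 35 phospholipid genes 10 were lower with tomatidine and 1 higher. INO1, which makes inositol phosphate, read 28.7, 22.6 and 30.9 with tomatidine, 29.1, 30.4 and 30.2 in control and 117, 139 and 162 with fenpropimorph (difference -2.35 ± 0.133, adjusted p = 1.83e-07). OPI3, the last methyltransferase of phosphatidylcholine synthesis, read 192, 173 and 173 with tomatidine, below every control array, and 566, 609 and 636 with fenpropimorph, above every control array (control 290.5, 261 and 263, difference -1.75 ± 0.097, adjusted p = 1.73e-07). Sphingolipid genes were lower in 12 and higher in 7 of 32 cases (37.5% and 21.9%, beside 18% and 22.7% of all genes). YSR3, a long-chain base phosphatase, was above control with both, at 271, 287 and 228 with tomatidine, 671, 914 and 1183 with fenpropimorph and 69.7, 65.2 and 58.1 in control (difference -1.79 ± 0.175, adjusted p = 1.41e-05). Its homologue LCB3 went the other way (0.66 ± 0.0965, adjusted p = 0.000302). The 10 lower phospholipid genes became 6 without tomatidine 3, the 1 higher became 0 without any 1 compared array but fenpropimorph 1, and the 7 higher sphingolipid genes became 4 without tomatidine 1, tomatidine 2 or fenpropimorph 2.

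Membrane compartment genes held a pair of paralogues in opposition. FHN1 read 93.7, 129 and 88.8 with tomatidine, 527, 610.2 and 716 with fenpropimorph and 29.6, 37.7 and 26.5 in control (difference -2.58 ± 0.159, adjusted p = 3.86e-07), whereas its paralogue NCE102 read 2256, 2169 and 2221 with tomatidine and 1504, 1456 and 1183 with fenpropimorph (0.69 ± 0.0938, adjusted p = 0.000169). PUN1 and SUR7, proteins of the same compartment, differed by -1.92 ± 0.0915 and 0.88 ± 0.0861 (adjusted p = 6.69e-08 and 1.39e-05). Over the list, 5 of 15 were lower and 4 higher (33.3% and 26.7%, beside 18% and 22.7% of all genes). Among 16 fatty acid genes, 3 were higher with tomatidine, the elongases ELO1, ELO2 and ELO3, and 3 lower. The share each way, 18.75%, was near that of all genes. The higher genes were 5 in 6 of the alternative fits, among them that of the 6 compared arrays alone. ELO1 read 981, 850.3 and 1019 with tomatidine, 502, 406 and 356 with fenpropimorph and 1618, 1395 and 1526 in control (difference 1.18 ± 0.117, adjusted p = 1.53e-05).

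Arginine synthesis led the genes that were higher with tomatidine. ARG1, argininosuccinate synthetase, read 2072, 1363 and 2001 with tomatidine, 318, 236 and 217 with fenpropimorph and 869.5, 359 and 845 in control. It was 7.03-fold higher with tomatidine than with fenpropimorph (log2 difference 2.81 ± 0.3, adjusted p = 2.81e-05). ARG3, ornithine carbamoyltransferase, read 102, 65.5 and 118, 16.9, 11.3 and 16.03 and 62.02, 22.8 and 63.4 in the same order, 6.36-fold higher with tomatidine (2.67 ± 0.345, adjusted p = 0.000117) and 3.55-fold with 16 added to each signal. For both genes the arrays of day 2 were lowest among the tomatidine and the control arrays. ARG4, argininosuccinate lyase, differed by 0.82 ± 0.113 (adjusted p = 0.000185). The genes that break arginine and proline down lay the other way, with CAR1, arginase, at -0.82 ± 0.107, CAR2, ornithine transaminase, at -1.32 ± 0.237 and PUT1, proline oxidase, at -1.63 ± 0.121 (adjusted p = 0.000122, 0.00121 and 1.67e-06). Of 18 genes in the list 8 were higher with tomatidine and 4 lower.

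Other amino acid pathways were also higher with tomatidine, by less. Lysine and branched-chain genes were higher with tomatidine in 13 of 21 cases (61.9%) and lower in 2. LYS20, homocitrate synthase, read 3550.04, 3016 and 3248 with tomatidine, 1813, 1502 and 1617 with fenpropimorph and 2119, 2059 and 1973 in control (difference 0.99 ± 0.0809, adjusted p = 3.67e-06). LEU1 was one of the lower genes (-0.55 ± 0.0764, adjusted p = 0.000207). In the list of other amino acid synthesis 20 of 37 (54.1%) were higher and 1 lower. HIS1, of histidine synthesis, and HOM3, aspartate kinase, differed by 0.68 ± 0.0831 and 0.63 ± 0.0715 (adjusted p = 7.82e-05 and 4.71e-05). The lower one was ARO10, phenylpyruvate decarboxylase, at 41.98, 36.2 and 41.5 with tomatidine, 88.8, 128 and 114 with fenpropimorph and 135, 126 and 88.3 in control (difference -1.45 ± 0.167, adjusted p = 4.86e-05), and without fenpropimorph 2 the lower genes were 2.

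Of the sulfur genes, more were lower than higher with tomatidine. Among the 33 genes for methionine and for assimilating sulfate, 16 (48.5%) were lower with tomatidine than with fenpropimorph and 4 higher. Against control 13 were called higher with tomatidine (median 0.27) and 0 lower. With fenpropimorph 20 were called higher than control (median 0.46) and 3 lower. MET3, ATP sulfurylase, read 72.96, 81.7 and 87.3 with tomatidine, 276, 337 and 318 with fenpropimorph and 59.7, 62.4 and 60.2 in control (difference -1.94 ± 0.0947, adjusted p = 7.75e-08). MET14, the next kinase, read 125, 152 and 159, 422, 518 and 504 and 80.5, 78.7 and 77.6 in that order (difference -1.73 ± 0.102, adjusted p = 2.78e-07). SAM2, S-adenosylmethionine synthetase, which makes the methyl donor that ERG6 and OPI3 use, differed by -1.02 ± 0.092 (adjusted p = 7.37e-06).

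**Figure D5:**
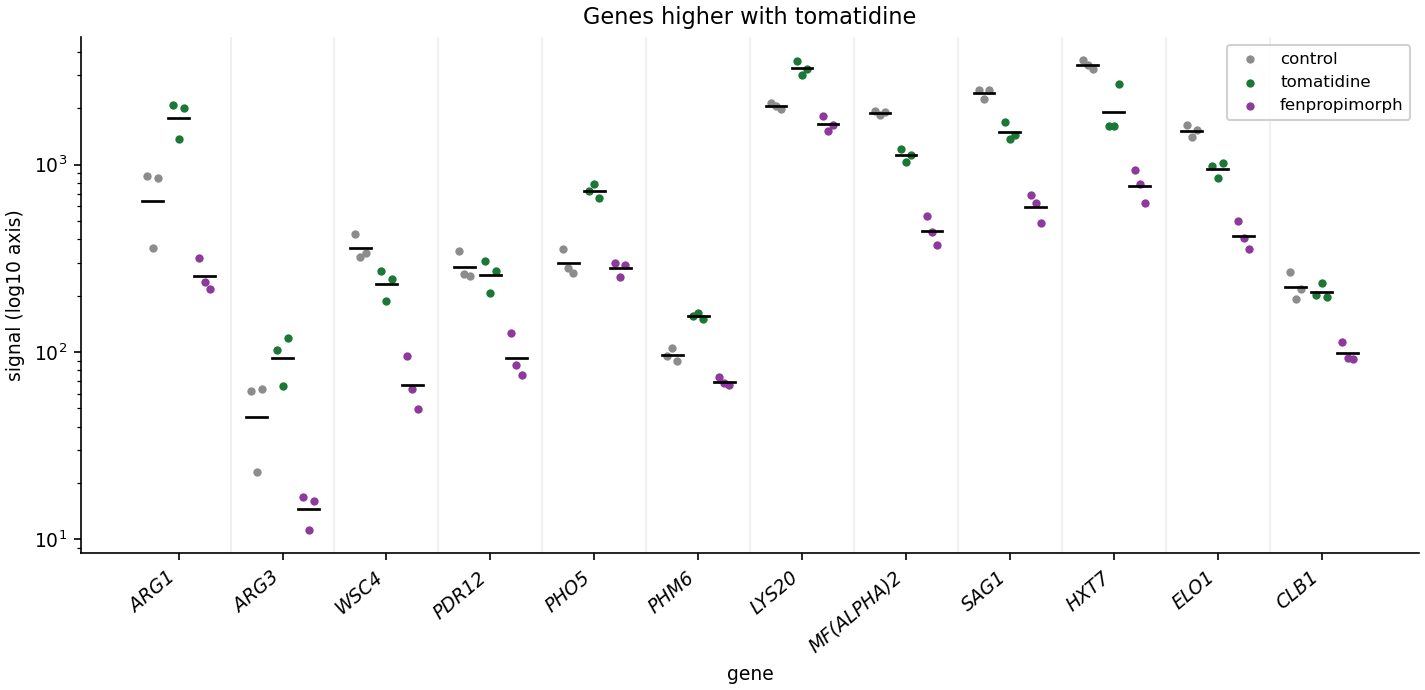
Signal on a log10 axis (vertical) of 12 genes that were higher with tomatidine than with fenpropimorph (horizontal axis), 1 point per array for control, tomatidine and fenpropimorph, with a bar at the geometric mean. ARG1, PHO5 and PHM6 lie above control with tomatidine, whereas WSC4, MF(ALPHA)2, SAG1, HXT7 and ELO1 lie below control with both compounds and lowest with fenpropimorph.

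Phosphate genes were higher with tomatidine in 13 of 20 cases (65%) and lower in 3. PHO5, the repressible acid phosphatase, read 726, 789.98 and 661 with tomatidine, 299, 251 and 291 with fenpropimorph and 355, 281 and 264 in control (difference 1.37 ± 0.113, adjusted p = 3.78e-06), so that the fenpropimorph arrays overlapped control. PHM6 read 156, 162 and 150.2 with tomatidine, above all control arrays, and 73.3, 68.6 and 66.6 with fenpropimorph, below them (control 95.6, 106 and 89.9, difference 1.17 ± 0.0883, adjusted p = 1.97e-06). The sodium-phosphate transporter PHO89 was above control with both and higher with fenpropimorph, at 713, 937 and 632 with tomatidine, 1634, 1555 and 1986 with fenpropimorph and 215, 264 and 189 in control (difference -1.19 ± 0.168, adjusted p = 0.000222). PHM8, a nucleotidase, was also lower with tomatidine (-1.32 ± 0.142, adjusted p = 2.95e-05).

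Ribosome production genes were higher with tomatidine as a group, each by less than 2-fold. Of 75 ribosome biogenesis genes 68 (90.7%, beside 22.7% of all genes) were higher and 0 lower, with a median log2 difference of 0.50, and 0 differed 2-fold. Their median was 0.19 against control with tomatidine, with 3 genes called higher, and -0.30 with fenpropimorph, with 50 called lower. TSR1, needed for the small subunit, read 634, 838 and 643 with tomatidine, 431, 382 and 421 with fenpropimorph and 551, 449 and 662 in control (difference 0.77 ± 0.137, adjusted p = 0.00117). DBP2, an RNA helicase, differed by 0.75 ± 0.101 (adjusted p = 0.000161). RNA polymerase I genes were higher in 13 of 16 cases, with RPA49 at 0.60 ± 0.077 and RPA43 at 0.60 ± 0.0956 (adjusted p = 0.000119 and 0.000557).

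The ribosomal proteins themselves differed less. Of 39 measured cytosolic ribosomal protein genes 8 (20.5%) were higher with tomatidine, a share near that of all genes, and the other 31 were not called. Mitochondrial ribosomal proteins were higher in 29 of 69 cases (42%) and lower in 2, but higher in 12 without tomatidine 1 and in 17 without tomatidine 2 or fenpropimorph 3. Their medians lay below control with both compounds. These were -0.16 with tomatidine (7 called lower, 0 higher) and -0.38 with fenpropimorph (54 called lower, 1 higher). Purine and one-carbon genes were higher in 16 of 25 cases (64%) and lower in 0. Against control 20 of these were called lower with fenpropimorph (median -0.64) and 0 higher. With tomatidine 0 were called either way against control (median -0.15). FCY2, the purine-cytosine permease, read 1467, 1504 and 1334 with tomatidine, 786, 702 and 710.1 with fenpropimorph and 1121, 1180.5 and 1354 in control (difference 0.97 ± 0.0964, adjusted p = 1.59e-05). HPT1, which salvages hypoxanthine, differed by 0.89 ± 0.106 and ADE6, of purine synthesis, by 0.71 ± 0.126 (adjusted p = 6.43e-05 and 0.00116).

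Mating type markers were read against the labelled alpha strain. MF(ALPHA)1 and STE3, alpha-cell genes, read 5797, 6058 and 5672 and 1040.2, 999 and 1096 in control. Of the a-cell genes, STE2 and AGA2 read 6.59, 7.40 and 7.01 and 6.78, 7.95 and 6.76, and the pheromone genes MFA1 and MFA2 read 55.8, 66.6 and 65.9 and 85.5, 103 and 90.2. Genes specific to alpha cells were higher with tomatidine than with fenpropimorph in all 4 measured cases. The pheromone gene MF(ALPHA)2 read 1215, 1031 and 1124 with tomatidine, 533, 434 and 373 with fenpropimorph and 1927, 1837 and 1901 in control (difference 1.34 ± 0.11, adjusted p = 3.7e-06). SAG1, the alpha-agglutinin, read 1689, 1367 and 1445, 692, 622 and 487 and 2490.4, 2248 and 2503 in that order (difference 1.33 ± 0.118, adjusted p = 6.66e-06). Both compounds lay below control, and fenpropimorph further. STE3, the receptor for the partner's pheromone, and MF(ALPHA)1 differed by 0.81 ± 0.0801 and 0.45 ± 0.0664 (adjusted p = 1.6e-05 and 0.000305). Of 7 a-cell genes limma called 0, with log2 differences from -0.30 to 0.13, 1 had an unadjusted p under 0.05, and 1 was called with the day as a block or without tomatidine 1. In the pheromone response list 15 of 30 were higher and 5 lower, with SST2, which damps the signal, FAR1, which arrests the cycle, and AGA1, an adhesion subunit, at 0.93 ± 0.0991, 0.85 ± 0.0981 and 0.79 ± 0.102 (adjusted p = 2.8e-05, 4.86e-05 and 0.000115). PRM4 and PRM8, named for their pheromone regulation, lay the other way at -1.67 ± 0.102 and -1.26 ± 0.065 (adjusted p = 3.49e-07 and 1e-07).

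Mitotic cyclin genes were higher with tomatidine than with fenpropimorph. CLB1 read 201, 232 and 196 with tomatidine, 266, 191 and 216 in control and 113, 92.4 and 92.1 with fenpropimorph (difference 1.09 ± 0.127, adjusted p = 5.53e-05), and CLB2 read 75.4, 79.6 and 75.9, 77.7, 81.3 and 81.6 and 48.5, 43.1 and 46.7 (difference 0.74 ± 0.0624, adjusted p = 4.6e-06). Tomatidine arrays overlapped control for both. Of 22 cyclin and histone genes 15 (68.2%) were higher with tomatidine and 1 lower, the G1 cyclin PCL1 (-0.69 ± 0.0879, adjusted p = 0.000106). Of 10 genes of daughter-cell separation 6 were higher and 0 lower, by at most 0.42.

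Few hexose transporter genes differed between the compounds. HXT7 and HXT6, high-affinity transporters of near-identical sequence that cannot be told apart here, were below control with both compounds and lowest with fenpropimorph. HXT7 read 1613, 1607 and 2689.7 with tomatidine, 933, 786 and 627 with fenpropimorph and 3600.3, 3392 and 3249 in control (difference 1.31 ± 0.183, adjusted p = 0.000212), and HXT6 differed by 1.01 ± 0.188 (adjusted p = 0.00157). HXT4 read 248, 189.97 and 485, 165, 98.6 and 105 and 506, 388 and 582 in that order (difference 1.25 ± 0.302, adjusted p = 0.008). Tomatidine 3 was the highest tomatidine array for all 3 genes. HXT5, a transporter of slow growth and stress, read 15.7, 16.1 and 17.6 with tomatidine, 17.5, 19.7 and 19.2 in control and 58.4, 70.5 and 67.4 with fenpropimorph (difference -1.99 ± 0.0903, adjusted p = 5.34e-08). With 16 added to each signal the HXT5 fold fell from 3.96 to 2.50. In the list 4 of 20 were higher with tomatidine (1 when probe sets with a suffix letter were left out) and 1 lower (2 with the day as a block or without tomatidine 2 or tomatidine 3). These shares, 20% and 5%, were near or below those of all genes.

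Few respiratory chain genes differed between the compounds. Of 43 genes 6 were higher with tomatidine and 6 lower (14% each, below the shares of all genes), with a median log2 difference of 0.06. Against control the medians were -0.38 with tomatidine (24 called lower) and -0.46 with fenpropimorph (29 called lower). The external NADH dehydrogenases were split, with NDE1 at 522, 495 and 735 with tomatidine, 340.2, 261 and 303 with fenpropimorph and 1507, 1044 and 1270.1 in control (difference 0.94 ± 0.167, adjusted p = 0.00114) and NDE2 lower with tomatidine (-1.07 ± 0.101, adjusted p = 1.02e-05). STF2 and STF1, which stabilise the inhibited ATP synthase, were lower with tomatidine by -1.38 ± 0.131 and -0.86 ± 0.0783 (adjusted p = 1.04e-05 and 7.87e-06). Of 19 genes of the tricarboxylic acid cycle 8 were lower and 1 higher, with CIT2, the peroxisomal citrate synthase, at -1.02 ± 0.118 (adjusted p = 5.21e-05). Glycolysis and fermentation had 8 lower and 2 higher of 26, with the glucokinase GLK1 at -0.89 ± 0.0959 and TDH1 at -0.98 ± 0.171 (adjusted p = 3.05e-05 and 0.000971). Gluconeogenesis and fat breakdown had 11 lower and 0 higher of 32, with MDH2 at -1.17 ± 0.111 (adjusted p = 1.09e-05). The 6 higher respiratory genes became 3 without tomatidine 1 or fenpropimorph 3 and 2 without fenpropimorph 2. The 8 lower genes of the tricarboxylic acid cycle became 4 without tomatidine 2 or fenpropimorph 2 and 5 without tomatidine 3 or fenpropimorph 1. For glycolysis, the 8 became 5 without fenpropimorph 2 or fenpropimorph 3, and the 2 became 1 without either of these or tomatidine 1.

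Transport genes for nutrients and metals were called in both directions, in the nitrogen and iron lists at shares near or below those of all genes. The oligopeptide transporters OPT1 and OPT2 were higher with tomatidine by 1.22 ± 0.0997 and 1.20 ± 0.133 (adjusted p = 3.69e-06 and 3.86e-05), and in the nitrogen list that holds them 9 of 35 genes were higher and 4 lower. ATR1, a multidrug exporter, and SSU1, the sulfite exporter, read 438, 282 and 348 and 719, 533 and 656 with tomatidine and 167, 137 and 115 and 356, 289.7 and 272 with fenpropimorph (differences 1.34 ± 0.174 and 1.05 ± 0.121, adjusted p = 0.000121 and 4.84e-05). The iron uptake pair FET3 and FTR1 was higher with tomatidine (0.96 ± 0.135 and 0.86 ± 0.134), and TIS11, which lowers mRNAs of iron-using proteins, was lower (-1.63 ± 0.189), with adjusted p = 0.00021, 0.000471 and 5.22e-05. Of 31 iron genes 5 were higher and 3 lower, and of 13 zinc genes 5 were higher and 0 lower, led by the transporter ZRT1 (0.82 ± 0.109, adjusted p = 0.000149). The 5 iron genes became 3 without tomatidine 2, fenpropimorph 2 or fenpropimorph 3, and the 5 zinc genes 3 without fenpropimorph 2.

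The remaining lists held 4 to 22 measured genes. Polyamine genes were higher in 3 and lower in 3 of 14 cases (21.4% each, near the shares of all genes). The exporter TPO4 differed by -1.47 ± 0.122 (adjusted p = 4.22e-06). Kynurenine and NAD genes were higher in 1 and lower in 5 of 14, with BNA2, the first enzyme, at -1.08 ± 0.0993 and PNC1, nicotinamidase, at -0.95 ± 0.0784 (adjusted p = 8.54e-06 and 4.18e-06). Biotin and thiamine genes were higher in 5 and lower in 3 of 19 (26.3% and 15.8%), and sporulation genes in 2 and 2 of 22 (9.09% each). These shares were near or below those of all genes. Of the RTA1 family 2 of 4 were lower and 0 higher. Without tomatidine 3 the higher kynurenine genes were 2 and the higher biotin and thiamine genes 3, the latter also without fenpropimorph 3, and the higher sporulation genes were 1 without tomatidine 2, fenpropimorph 2 or fenpropimorph 3. Further genes among the 20 highest were SFG1, a transcription factor of filamentous growth (1.23 ± 0.136), GFD2 (1.11 ± 0.127), ARO5 (1.31 ± 0.118) and the small nucleolar RNA gene SNR63 (1.08 ± 0.107), with adjusted p-values of 3.73e-05, 4.81e-05, 7.7e-06 and 1.53e-05. TMA10, a ribosome-associated stress protein, completed the 20 lowest (-2.86 ± 0.224, adjusted p = 2.59e-06).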

How the data were processed

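RNA of 12 cultures was measured on yeast GeneChip arrays, 1 per culture. The deposited values were signal intensities on a linear scale, summarised by RMA per the submitters' processing notes, with no version given in the sources used here; array medians ran from 77.3 to 78.9. Of 9335 probe sets, 60 array controls were left out. Of the 9275 tested, 6504 named 1 gene in the platform annotation, 328 several and 2443 none, and the brightest probe set stood for each of the 5656 genes. All 6504 matched RefSeq R64 by gene ID. Log2 signals of all 12 arrays were fitted with limma 3.58.1 (R 4.3.3) with 4 group means, so the arrays shared 1 variance estimate. P-values were adjusted by Benjamini-Hochberg over 9275 probe sets, and a gene was called at an adjusted p under 0.05.

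Members and lists were chosen with earlier results of these data known. Named genes were taken from the 354 that a rule gave: the 20 highest and 20 lowest called genes whose groups did not overlap, all members of 7 sterol and drug lists, and the 6 called genes with the largest differences of each other list. The text names 177 of these, picked with their values known; STE2, AGA2, MFA1 and MFA2 were named as cell type markers. Same-numbered arrays share a day, per the labels. The deviations of the 18 same-day array pairs from their group means correlated at 0.0351 on average (-0.203 to 0.236). On simulated data of 9275 probe sets with the same comparison, 44 of 50 changed 2-fold and 41 of 50 changed 1.5-fold were called, and 11 of 9075 unchanged ones. The simulated noise was independent between arrays, with no day effect. Far fewer probe sets were changed there than were called in the data, so these shares need not hold for the data. The number of arrays limits the precision. Alternatives were the 6 compared arrays alone, a day block, quantile normalization, median centring, bright probe sets only, an offset of 16, a trended robust prior, array weights, averaging the probe sets of a gene, each array left out, and, chosen after seeing the data, probe sets with a suffix letter left out. A planned description of promoter motifs was not run, since no sequences were used here.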

Additional observations from a re-analysis of the deposited data

Results flagged for a closer look

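For 25 of the genes named, all 3 tomatidine arrays lay on one side of the 3 control arrays and all 3 fenpropimorph arrays on the other, as was so for 368 (6.51%) of all 5656 genes. Most of the genes named were taken for large differences between the compounds, so their count is a description. Both compounds were set against the same control arrays, so the opposition is described by the direct log2 difference, tomatidine minus fenpropimorph, tested in the fit.

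Of these genes, 10 were above control with tomatidine and below it with fenpropimorph. ARG1 and ARG3, of arginine synthesis, differed by 2.81 and 2.67. LYS20, of lysine synthesis, differed by 0.99 and HIS1, of histidine synthesis, by 0.68. The peptide transporter gene OPT1 differed by 1.22, the phosphate-regulated PHM6 by 1.17 and the transcription factor gene SFG1 by 1.23. DBP2, an RNA helicase gene, differed by 0.75, and the RNA polymerase I subunit genes RPA43 and RPA49 each by 0.6.

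The other 15 were below control with tomatidine and above it with fenpropimorph. The CYSTM gene CPP3 differed by -3.37, HSP12 by -2.97, HSP26 by -2.45, RTC3 by -2.42 and MSC1 by -2.22. The cell surface protease genes YPS1 and YPS3 each differed by -2.07, PUN1 by -1.92 and OPI3, of phosphatidylcholine synthesis, by -1.75. STF2 and STF1, which act on the ATP synthase, differed by -1.38 and -0.86. PRM8 differed by -1.26, BNA2 by -1.08, the chaperone gene SSE2 by -1.07 and NSG2 by -0.55.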

How the results depend on the processing

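Of 181 genes named, 167 stayed on the same side of the threshold in every alternative run, and none changed sign while called. The effects of leaving out 1 array on the other genes are given in the report. Array weights brought IDI1 (0.25, adjusted p = 0.0282), YOR1 (-0.63, adjusted p = 0.0295) and ERG24 (-0.38, adjusted p = 0.047) past the threshold. Bright probe sets only and the offset of 16 did so for ERG24 (adjusted p = 0.0353 and 0.0446) and ERG4 (adjusted p = 0.0444 and 0.0433), and leaving out suffixed probe sets for ERG24 (adjusted p = 0.0494). The fit of the 6 compared arrays took ARE1 and ERG13 back over it (adjusted p = 0.0678 and 0.0607), quantile normalization ARE1 (adjusted p = 0.112), and averaging probe sets YHB1 (0.12, adjusted p = 0.226). Called genes numbered 2299, and between 2008 and 2614 in the other fits of all 6 compared arrays. With 1 array left out they numbered 1757 to 2147, fitted on fewer arrays. Restricting the fit to probe sets brighter than the median one, which tests fewer genes, lowered several counts: those at least 2-fold lower with tomatidine went from 248 to 148 probe sets and from 192 to 118 genes, general stress genes from 33 to 20, methionine and sulfate genes from 16 to 8 and seripauperins from 10 to 6. It also took lower genes of gluconeogenesis from 11 to 3, of sterol uptake from 5 to 3 and of iron from 3 to 1, higher regulators and higher biotin and thiamine genes each from 5 to 3, and lower biotin and thiamine genes from 3 to 0. Leaving out probe sets with a suffix letter took the seripauperins to 0, lower chaperones from 5 to 3 and higher hexose transporters from 4 to 1. Higher fatty acid genes went from 3 to 5 in the fit of the 6 compared arrays, with quantile normalization, the offset, array weights, averaged probe sets and suffixed probe sets left out. Higher cell wall genes went from 5 to 3 in the fit of the 6 compared arrays, higher respiratory genes from 6 to 10 with array weights, and higher phospholipid genes from 1 to between 0 and 4. Other list counts that moved by over 1.5 times, not given here or with their lists, were of 2 genes or fewer. With all 6 arrays they moved by 1 or 2 genes. Pairing arrays by day as a block gave 1255 genes higher and 985 lower with tomatidine, changed the call of no named gene, and moved by over 1.5 times only 5 list counts, each by 1 gene. Comparisons with control were not rerun under these alternatives. Dim probe sets limit the folds: an offset of 16 lowered the fold of 5 named genes by more than 1.5 times.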
